A study of Rattus norvegicus with 138 samples.

Results

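The comparison is between a pair of brainstem regions of the same normotensive animals, the solitary tract nucleus (NTS) and the rostral ventrolateral medulla (RVLM) of female Wistar-Kyoto rats (WKY/NHsd). The members are all 36 NTS and RVLM libraries of WKY rats among the 138 libraries of the series, that is, 18 of each region, and a pair of libraries belongs to 1 rat by the strain, age and animal number in its name. The rats were 8 wk (5 rats), 10 wk (4), 12 wk (3), 16 wk (3) and 24 wk old (3), and all ages were pooled. The labels name no treatment and no engineered allele for them. The rest of the series comes from the caudal ventrolateral medulla (CVLM) of these rats and from all 3 regions of 28 spontaneously hypertensive rats (SHRs). Tissue of each region was taken from both sides of a rat with a punch needle and pooled, so a library holds every cell type that fell into the punch, and fewer cells of a type and less RNA per cell cannot be told apart.

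The NTS lies in the dorsal medulla and receives the sensory fibers of the vagus and glossopharyngeal nerves, among them those of the arterial baroreceptors. The area postrema and the dorsal motor nucleus of the vagus lie next to it, and its noradrenergic neurons form the A2 group. The RVLM lies at the ventral surface farther forward and holds the C1 adrenaline neurons and other presympathetic neurons, whose axons drive the sympathetic preganglionic neurons of the spinal cord. The compact nucleus ambiguus, the facial motor nucleus and the retrotrapezoid nucleus are its neighbors.

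Of 32883 genes in the deposited tables, 13780 were tested, and 1467 (10.6%) were called different between the regions within rats. Calls required an adjusted p of at most 0.01 in edgeR's quasi-likelihood test, with the rat as a block, and a log2 fold change of at least 1 in either direction. The NTS was higher for 964 genes (7.00%) and the RVLM for 503 (3.65%), and the median log2 fold change of all tested genes was -0.016. A positive fold change means a higher level in the NTS throughout. The difference had 1 sign in all 18 rats for 995 of the called genes, and over all tested genes this held for 16.3%. Levels of the 18 NTS libraries and the 18 RVLM libraries did not overlap for 534 of the called genes, against 4.86% of all tested genes. Without the fold threshold, 46.2% of the tested genes had an adjusted p of at most 0.01. Library totals ran from 6799589 to 17755964 counts in the NTS and from 8437230 to 17889406 in the RVLM. A standard error (SE) was approximated as the absolute log2 fold change divided by the square root of the test's F statistic. Its median was 0.11. For genes at or near 0 in a region, this SE can understate the uncertainty of the fold. On the principal components, the RVLM libraries of WKY 8 wk replicate 3, WKY 16 wk replicate 3 and WKY 24 wk replicate 3 stood apart from the other RVLM libraries. Without these 3 rats 1019 genes were called higher in the NTS and 505 in the RVLM, and without the first 2 alone 986 and 511. Among NTS libraries, WKY 12 wk replicate 2, 24 wk replicate 1 and 24 wk replicate 3 had the lowest median correlations with their own region. These were 0.931, 0.931 and 0.934, and the rats of these NTS libraries were not left out together. The library names end in 1 for 11 rats and in 2 for 7, a number whose meaning the sources used here do not give, and within these sets 1316 and 1402 genes were called.

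**Figure D1:**
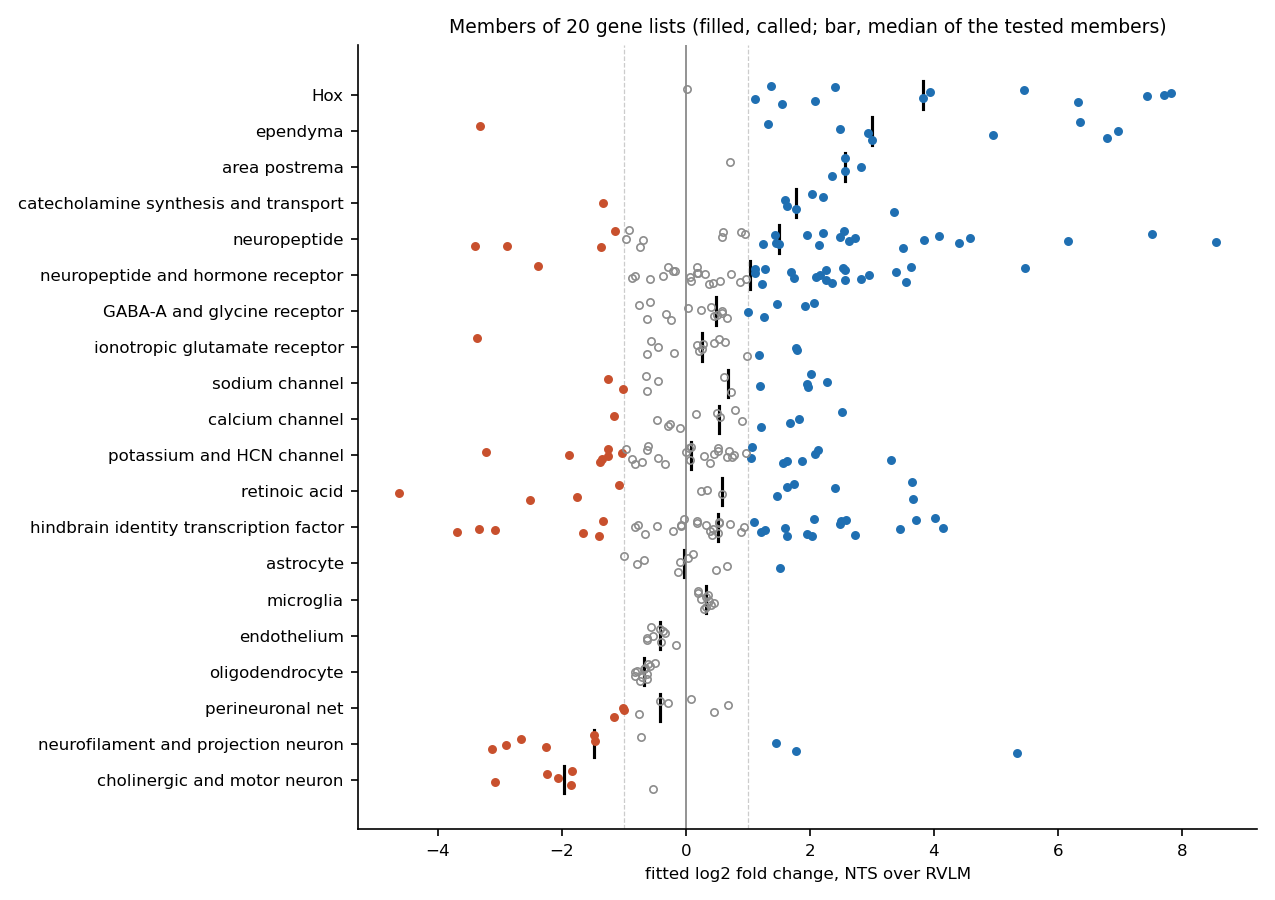
Fitted log2 fold change (NTS over RVLM, horizontal axis) of each tested member of 20 gene lists; filled points are called genes, blue higher in the NTS and red higher in the RVLM, open points are not called, dashed lines mark a log2 fold change of 1 and -1, and each bar is the median of a list. Medians ran from 3.83 for the Hox list to -1.95 for the cholinergic and motor neuron list, while the glial and vascular lists stayed between -1 and 1 apart from Gfap.

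Catecholamine genes are given first, as both regions hold catecholamine neurons. All 7 genes of this list were called, 6 higher in the NTS and 1 higher in the RVLM, with a median log2 fold change of 1.77. Tyrosine hydroxylase (Th), the rate-limiting enzyme of catecholamine synthesis, was at 86.7, 150 and 189 CPM (counts scaled to library size, given as lowest, median and highest of the 18 libraries of a region) and at 8.3, 42.5 and 85.3 CPM in the RVLM (log2 fold change 2.04, SE 0.23, adjusted p = 1.1e-07). Every NTS library lay above every RVLM library for Th. Dopamine beta-hydroxylase (Dbh), which makes noradrenaline, was at 40.1, 77 and 93.8 CPM in the NTS and at 1.72, 7.74 and 18.8 CPM in the RVLM (3.36, SE 0.24, adjusted p = 1e-10), also without overlap. Ddc, the decarboxylase that makes dopamine and serotonin, Slc18a2, the vesicular monoamine transporter, and Gch1, which starts the synthesis of the cofactor of Th, had log2 fold changes of 1.77, 1.60 and 1.64 and were higher in the NTS in 18 of 18 rats. The noradrenaline transporter Slc6a2 was higher in 17 of 18 (2.21, SE 0.30).

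Phenylethanolamine N-methyltransferase (Pnmt), which turns noradrenaline into adrenaline and marks the C1 group, went the other way. It was at 1.82, 5.77 and 17.3 CPM in the NTS and at 0.892, 13.3 and 52.7 CPM in the RVLM (log2 fold change -1.33, SE 0.36, adjusted p = 0.0032). The ranges overlapped widely, and the RVLM was higher in 13 of 18 rats. The RVLM libraries spread into low and high ones, with 17.8 to 52.7 CPM in 9 rats and 0.892 to 8.8 CPM in the other 9. The call for Pnmt was lost without the 3 rats whose RVLM libraries stood apart (-0.92, adjusted p = 0.039), also without the 8 wk and 16 wk rats of these alone (-1.08, adjusted p = 0.017), and of the 7 rats whose library names end in 2, all but 1 were among the low ones. In these 7 rats the log2 fold change was -0.52 (adjusted p = 0.50), and in the 11 rats of number 1 it was -1.76 (adjusted p = 0.0041). In the CVLM of the same rats Pnmt had a median of 44.1 CPM, Th of 140 and Dbh of 86.9, each higher than the RVLM median.

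The promoters of the Th and Slc18a2 genes are shown because both genes were higher in the NTS in every rat and both hold a cAMP response element, the 8-letter site bound by CREB. The sequences are the 250 bases before the annotated start, from RefSeq (build GRCr8), with the motif TGACGTCA in capitals.
Th, chr1:207508219-207508468, minus strand: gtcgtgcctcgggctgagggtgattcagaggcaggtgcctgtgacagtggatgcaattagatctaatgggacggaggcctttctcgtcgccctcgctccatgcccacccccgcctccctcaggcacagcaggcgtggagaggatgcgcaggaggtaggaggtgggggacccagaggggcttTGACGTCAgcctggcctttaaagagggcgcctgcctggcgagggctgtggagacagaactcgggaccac
Slc18a2, chr1:268399771-268400020, plus strand: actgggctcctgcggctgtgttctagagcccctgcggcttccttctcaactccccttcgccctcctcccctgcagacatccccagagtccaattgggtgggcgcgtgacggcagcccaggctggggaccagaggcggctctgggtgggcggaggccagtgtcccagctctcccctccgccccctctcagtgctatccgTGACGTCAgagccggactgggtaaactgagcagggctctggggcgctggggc
The motif, which reads the same on both strands, spans positions -69 to -62 before the start of Th and -52 to -45 before that of Slc18a2. The window searched ran from 250 bases before the start to 50 after it, of which the 250 before are printed. The motif was found in 2 of the 5 promoters matched for this list of 7 genes and in 1.83% of 33469 promoters searched over the same window. These matches describe letters only.

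**Figure D2:**
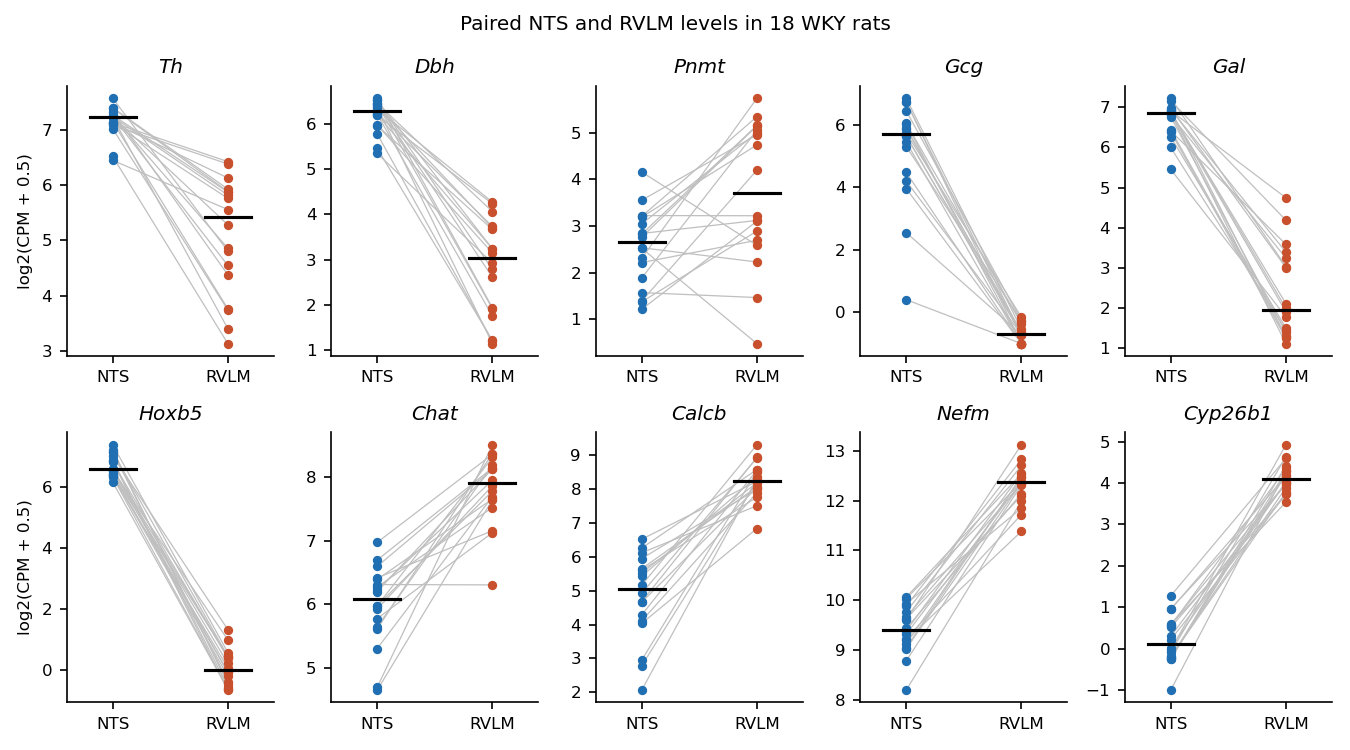
Levels of 10 genes in the NTS (blue) and the RVLM (red) of 18 WKY rats, on the scale log2(CPM + 0.5); each line joins the 2 libraries of a rat and black bars are medians. Lines run down for Th, Dbh, Gcg, Gal and Hoxb5 and up for Calcb, Nefm and Cyp26b1 in every rat, whereas they cross for Pnmt, and Chat is higher in the RVLM in 17 of 18 rats.

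Neuropeptide precursors were mostly higher in the NTS. Of 31 tested, 19 were higher in the NTS and 4 in the RVLM (median log2 fold change 1.51). Proglucagon (Gcg), the precursor of GLP-1 in neurons of the caudal NTS, had the largest fold change of all named genes, with 0.826, 51.6 and 115 CPM in the NTS and 0, 0.113 and 0.401 CPM in the RVLM (log2 fold change 8.55, SE 0.21, adjusted p = 5.7e-18). Fitted folds this large, where a region is at or near 0, depend on the small count that edgeR adds. Prlh, the prolactin-releasing peptide of A2 neurons, was at 0, 3.77 and 7.48 CPM in the NTS and at 0, 0 and 0.181 in the RVLM (7.52, SE 0.29, adjusted p = 1.5e-14). The NTS exceeded the RVLM for Prlh in 17 rats, and in the other rat both libraries were at 0. Galanin (Gal) was at 43.3, 116 and 149 CPM against 1.66, 3.35 and 26.3 CPM (4.41, SE 0.26), prodynorphin (Pdyn) at 66.7, 88.3 and 126 against 0.95, 5.57 and 22.4 (4.09, SE 0.32), and PACAP (Adcyap1) at 127, 162 and 207 against 6.74, 13.8 and 34.5 (3.51, SE 0.16). These 3 genes did not overlap between the regions. Hcrt, the orexin precursor, which is known from the hypothalamus, was counted in 17 of 18 NTS libraries (0, 4.3 and 21.6 CPM) and at most at 0.322 CPM in the RVLM (6.16, SE 0.34). Npy was low in both, with 0, 3.77 and 9.52 CPM against 0, 0 and 2.74 (4.58, SE 0.55).

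Precursors higher in the RVLM were Calca and Calcb, which encode the CGRP peptides, adrenomedullin (Adm) and urocortin (Ucn). Calcb was at 3.68, 32.6 and 91.5 CPM in the NTS and at 114, 300 and 636 CPM in the RVLM (log2 fold change -3.39, SE 0.34, adjusted p = 2.5e-08). Calca was at 4.63, 42.8 and 122 CPM against 163, 304 and 516 (-2.88, SE 0.33, adjusted p = 2.7e-07). Neither gene overlapped between the regions, and since they are close paralogs the division of reads between them is uncertain. Urotensin II (Uts2), a peptide of motor neurons that was not in the list, was at 0.115, 3.65 and 16.5 CPM against 18.4, 53 and 184 (-3.67, SE 0.40, adjusted p = 1e-07).

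Receptors for peptides and hormones were mostly higher in the NTS where they were called, with 20 of 40 tested genes higher in the NTS and Vipr2 alone higher in the RVLM (median log2 fold change 1.04). The neurokinin B receptor Tacr3 was at 22.7, 41.9 and 57.5 CPM in the NTS and at 1.5, 3.28 and 5.97 CPM in the RVLM (3.63, SE 0.14, adjusted p = 3e-15). Sstr5, a somatostatin receptor, had the largest fold change of the list (5.47, SE 0.30), with 0.403 to 3.18 CPM in the NTS and at most 0.113 in the RVLM. The cholecystokinin receptor Cckar, by which vagal signals of satiety are known to act, was at 1.31, 2.48 and 3.94 CPM against 0, 0.185 and 0.655 (3.55, SE 0.31), and the receptor of Prlh, Prlhr, at 1.1, 2.51 and 5.07 against 0, 0.205 and 0.777 (3.39, SE 0.32). The Npy receptor Npy2r had a log2 fold change of 2.95 (SE 0.20). Tacr3, Sstr5, Cckar, Prlhr and Npy2r did not overlap between the regions. The VIP and PACAP receptor Vipr2 was at 3.33, 7.07 and 11.7 CPM in the NTS and at 18.2, 38.7 and 54.8 CPM in the RVLM (-2.38, SE 0.16, adjusted p = 2.1e-11).

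Of 5 genes used as markers of the area postrema, 4 were called higher in the NTS. The GDF15 receptor Gfral, which is known from area postrema and NTS neurons, was at 3.26, 6.42 and 12.1 CPM in the NTS and at 0.322, 1.13 and 2.18 CPM in the RVLM (log2 fold change 2.56, SE 0.17). The amylin receptor parts Calcr and Ramp3 had log2 fold changes of 2.35 and 2.57, and the GLP-1 receptor Glp1r of 2.83. Plvap, which marks the fenestrated vessels of the area postrema, was at 7.66, 9.75 and 15.1 CPM against 1.72, 5.68 and 14 and did not reach the fold threshold (0.72, adjusted p = 0.00017). The summed level of these 5 markers ran from 48.5 to 77.9 CPM in the NTS and from 6.12 to 33.1 CPM in the RVLM. Since Gfral is also known from NTS neurons, these values do not tell area postrema tissue from NTS tissue. Whether the punches held area postrema, and its part in the peptide and receptor differences, was not tested. Of 7 markers of the retrotrapezoid nucleus tested, 3 were called higher in the NTS and 1 in the RVLM (median log2 fold change 0.54). The 3 were Gal, Adcyap1 and the transcription factor Lbx1 (1.28). The 1 was the transcription factor Atoh1, at 0, 0.25 and 1.17 CPM in the NTS and at 0.0667, 0.512 and 4.15 CPM in the RVLM (-1.40, SE 0.31, adjusted p = 5e-04), which was higher in the RVLM of 16 of 18 rats with overlap between the regions. Atoh1 lost its call within the libraries of number 2 (adjusted p = 0.097). Neuromedin B (Nmb) had a log2 fold change of -0.69 (adjusted p = 0.0011) and the proton receptor Gpr4 of -0.27 (adjusted p = 0.23).

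In the angiotensin system list, 2 of 10 tested genes were called, both higher in the NTS. The angiotensin II receptor Agtr1a was at 6.07, 10.8 and 17.8 CPM in the NTS and at 0.843, 2.54 and 3.76 CPM in the RVLM (log2 fold change 2.21, SE 0.12, adjusted p = 1.2e-12), without overlap. Mas1, the receptor of angiotensin-(1-7), had a log2 fold change of 3.16 (SE 0.40) at a level of at most 3.1 CPM. Angiotensinogen (Agt) and the converting enzyme Ace were higher in the NTS by less than the fold threshold (0.34 and 0.81, adjusted p = 7e-06 and 2.8e-05), and Agtr2 had a log2 fold change of -0.49 (adjusted p = 0.0031). Of 6 adrenergic receptors tested, Adra1d was called, with 0.398, 2.22 and 3.97 CPM in the NTS and 1.82, 13.9 and 25.8 CPM in the RVLM (-2.60, SE 0.19). Adra2a, the receptor on which clonidine acts, had a log2 fold change of 0.83 (adjusted p = 7.1e-05).

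Hox genes that were tested were mostly higher in the NTS. These transcription factors keep the position along the body axis set in the embryo, and genes with higher paralog numbers are used farther toward the tail. Of 30 Hox genes listed, 29 were in the tables and 13 passed the filter on low values, and 12 of those 13 were higher in the NTS, with a median log2 fold change of 3.83. Since the filter kept a gene for a high value in either region, genes low in both were not tested. Genes at or near 0 in every RVLM library, such as Hoxb6, Hoxb7 and Hoxa5, could pass only through the NTS. Their direction was set by the filter, so the 12 of 13 and the median support no result about the group. Of all tested genes, 7.00% were called higher in the NTS. Hoxb5 was at 71.5, 97 and 168 CPM in the NTS and at 0.13, 0.495 and 2 CPM in the RVLM (7.44, SE 0.20, adjusted p = 1.2e-17). Hoxc5 was at 16.6, 22.5 and 32.1 CPM against 0, 0.547 and 1.69 (5.45, SE 0.30), and Hoxb6 at 1.96, 6.44 and 11 against 0, 0 and 0.14 (7.71, SE 0.28). Hoxb7 was at 0.31, 4.32 and 10.2 CPM against 0, 0 and 0.0709 (7.83, SE 0.26). No library of the RVLM reached the lowest NTS library for these 4 genes, nor for Hoxb4 (3.83) and Hoxc4 (3.94).

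Hox genes of lower paralog number differed less. Hoxa2, Hoxb2, Hoxb3 and Hoxd3 had log2 fold changes of 1.55, 2.09, 1.11 and 2.41, and Hoxd1 of 0.02 (adjusted p = 0.94). Hoxa2 was at 2.39, 7.89 and 11.2 CPM in the NTS and at 0.709, 2.73 and 4.64 CPM in the RVLM, and was higher in the NTS of all 18 rats with overlap between the regions. Hoxd4, a low gene (at most 2.16 CPM), had a log2 fold change of 1.38. Hoxa5 was at 0 CPM in 5 of 18 NTS libraries and at 13.6 CPM in the highest (6.32, SE 0.45), and a row with the name of a clone holds the same counts, so the count of the gene is uncertain. The CVLM of these rats had medians of 61.2 CPM for Hoxb5, 17.5 for Hoxc5 and 16.3 for Hoxc4, which lie near the NTS, but 1.06 for Hoxb6, 0 for Hoxb7 and 0.152 for Hoxa5, which lie near the RVLM.

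**Figure D3:**
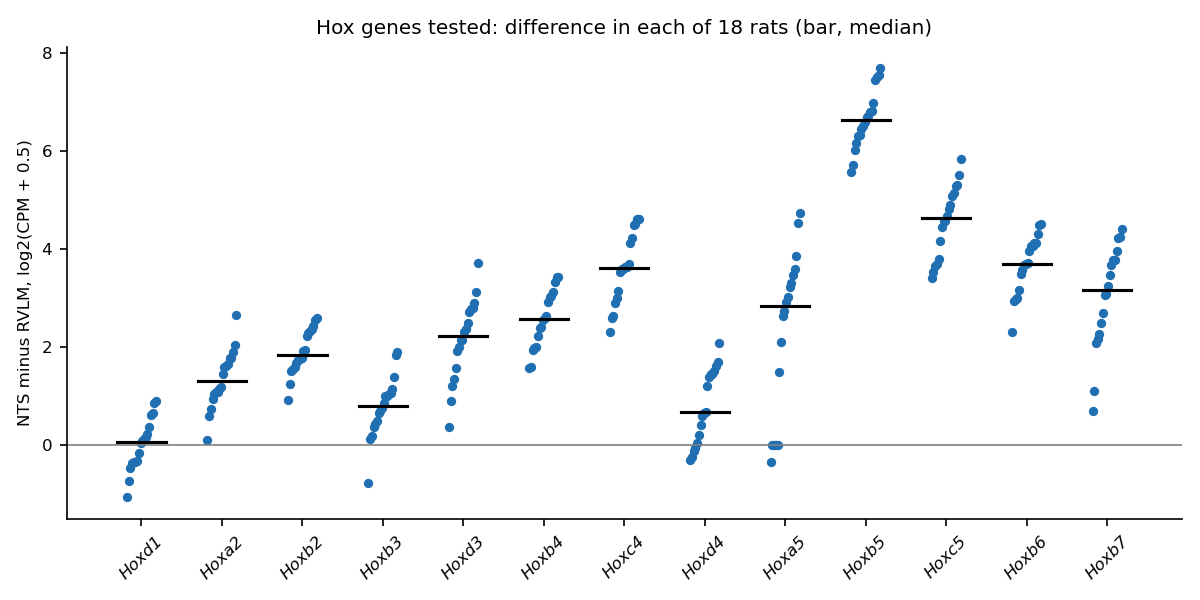
Difference between the NTS and the RVLM of each of 18 rats on the scale log2(CPM + 0.5) (vertical axis) for the 13 Hox genes tested, in order of paralog number; points are rats, sorted by value within a gene, and bars are medians. Points of Hoxd1 lie on both sides of 0, and all 18 lie above 0 for 9 genes that include Hoxb5, Hoxc5, Hoxb6 and Hoxb7.

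Retinoic acid, which patterns Hox genes in the embryonic hindbrain, had genes on both sides, with 6 of 13 tested genes higher in the NTS and 4 in the RVLM. Synthesis was divided between enzymes. Aldh1a2 was at 3.74, 19.1 and 63.9 CPM in the NTS and at 0.765, 1.46 and 3.3 CPM in the RVLM (log2 fold change 3.67, SE 0.30), while Aldh1a1 was at 32.2, 57.9 and 89.9 against 271, 323 and 441 (-2.51, SE 0.09, adjusted p = 2.2e-15) and Aldh1a3 had a log2 fold change of -1.75. Cyp26b1, which degrades retinoic acid, was at 0, 0.588 and 1.92 CPM in the NTS and at 11.1, 16.6 and 29.8 CPM in the RVLM (-4.62, SE 0.23, adjusted p = 2.2e-13). The receptor Rarb, which is known as a target of retinoic acid, was at 25.4, 37.5 and 51.1 CPM against 4.5, 7.25 and 10.3 (2.40, SE 0.09, adjusted p = 2e-15). Aldh1a2, Aldh1a1, Cyp26b1 and Rarb had no overlap between the regions. The uptake receptor Stra6 (3.65), the binding protein Crabp1 (1.47) and the receptor Rxrg (1.74) were also higher in the NTS.

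The site for which Rarb is known is printed because Rarb had no overlap between the regions. It is a direct repeat, GGTTCA and AGTTCA with 5 letters of any kind between them, shown here in capitals inside 30 bases of the RefSeq sequence.
Rarb, GRCr8 chr15:11336410-11336439, plus strand: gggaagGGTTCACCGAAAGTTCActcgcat
These letters stand at 25 to 41 bases after the annotated start. Among 33469 promoters searched on both strands over the window named above, from 250 bases before the start to 50 after it, the repeat occurred in 3 (0.00896%), and among the 13 promoters matched for the retinoic acid list in that of Rarb. The repeat searched is the site already known for Rarb, so its match there was fixed in advance. These matches, too, describe letters only.

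Other transcription factors of hindbrain cell types were called in both directions. Of 42 tested, 16 were higher in the NTS, 6 in the RVLM and 20 not called (median log2 fold change 0.52). Over all called genes, 65.7% were higher in the NTS, so no lean particular to these factors is read from the counts. The largest of the 16 were Lhx9 (4.15, SE 0.36), Zic4 (4.01, SE 0.25), Uncx (3.71, SE 0.36) and Lhx2 (3.46, SE 0.39). Zic4, a gene of the dorsal hindbrain, was at 8.15, 13.8 and 20.7 CPM in the NTS and at 0.0681, 0.921 and 1.9 CPM in the RVLM. Gata3, which specifies V2b and serotonin neurons, was at 0, 0.4 and 1.24 CPM against 0.382, 6.03 and 12 (-3.68, SE 0.30), and its partner Gata2 had a log2 fold change of -1.66. Lhx4 and Isl1, which specify motor neurons, had log2 fold changes of -3.33 and -3.08 without overlap. Tph2, the enzyme of serotonin neurons, did not go with Gata2 and Gata3 and was at 12.3, 26.7 and 38.8 CPM in the NTS and at 1.72, 2.69 and 15.3 CPM in the RVLM (2.94, SE 0.18). The serotonin transporter Slc6a4 and the serotonin neuron factor Fev were too low to be tested.

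Cholinergic and motor neuron genes were higher in the RVLM. Of 6 genes tested 5 were called, all in this direction, with a median log2 fold change of -1.95. Choline acetyltransferase (Chat) was at 24.6, 67.7 and 125 CPM in the NTS and at 78.5, 240 and 363 CPM in the RVLM (-1.85, SE 0.19, adjusted p = 3.3e-08). Isl1 was at 1.32, 5.18 and 9.78 CPM against 17.7, 43 and 59 (-3.08, SE 0.19, adjusted p = 9.2e-12), and the vesicular acetylcholine transporter Slc18a3 at 25.8, 96.9 and 193 against 199, 457 and 727 (-2.24, SE 0.19). Isl1 and Slc18a3 did not overlap between the regions. Peripherin (Prph) and the choline transporter Slc5a7 had log2 fold changes of -2.06 and -1.84. The summed level of the list ran from 458 to 1100 CPM in the NTS and from 1200 to 3210 CPM in the RVLM. In the CVLM, Chat had a median of 18.4 CPM and Isl1 of 1.88 CPM, lower than in either of the other regions.

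Among the 12 genes with the largest folds toward the RVLM were Chodl, Kcnj14, Hspb1 and Grin3b, none of which is in this list. Chodl, a lectin of fast motor neurons, was at 9.67, 38.7 and 90.5 CPM in the NTS and at 149, 450 and 664 CPM in the RVLM (log2 fold change -3.60, SE 0.24, adjusted p = 2.3e-11). Kcnj14, the Kir2.4 channel of cranial motor nuclei, was at 9.09, 28.9 and 54 CPM against 116, 266 and 365 (-3.22, SE 0.19), and Hspb1, a small heat shock protein, at 4.83, 39.4 and 75.3 against 126, 332 and 572 (-3.39, SE 0.24). The NMDA receptor subunit Grin3b was at 0.569, 2.18 and 5.63 CPM against 1.69, 26.2 and 61.1 (-3.37, SE 0.22). Chodl, Kcnj14 and Hspb1 did not overlap between the regions, and Grin3b was higher in the RVLM of all 18 rats.

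Neurofilament genes, which build the axons of large projection neurons, went with the motor neuron genes. Nefh, Nefm and Nefl had log2 fold changes of -3.13, -2.90 and -2.25 (SE 0.15, 0.12 and 0.11). Nefm was at 294, 681 and 1070 CPM in the NTS and at 2670, 5270 and 8890 CPM in the RVLM (adjusted p = 2e-14), and Nefl at 1970, 2790 and 3880 against 6260, 14700 and 19600 (adjusted p = 1.1e-13). Osteopontin (Spp1), which also marks such neurons, was at 56.6, 88.6 and 161 CPM against 228, 605 and 1060 (-2.66, SE 0.14). Nefm, Nefl and Spp1 did not overlap between the regions. The list of these genes had 10 tested, of which 6 were called higher in the RVLM and 3 in the NTS. The 3 were the calcium buffers calbindin (Calb1), calretinin (Calb2) and parvalbumin (Pvalb). Calb1 was at 157, 218 and 445 CPM in the NTS and at 1.86, 5.36 and 16.2 CPM in the RVLM (5.34, SE 0.19, adjusted p = 1.8e-15), and Calb2 had a log2 fold change of 1.78. Of 9 perineuronal net genes, 3 were called, all higher in the RVLM. Among these 3, Acan, the aggrecan core protein, had a log2 fold change of -1.15, and Hapln4 and Hapln2 stood near the fold threshold (-1.01 and -1.0) and were lost with library totals as the scale (-0.80 and -0.79) and without some single rats.

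Of 10 transmitter genes tested, 3 were called, all higher in the NTS (median log2 fold change of the list 0.21). Of all tested genes, 7.00% were called in this direction. Gad1, which makes GABA, was at 247, 306 and 496 CPM in the NTS and at 32.6, 76.6 and 164 CPM in the RVLM (log2 fold change 2.10, SE 0.17, adjusted p = 3.8e-10), and Gad2 had a log2 fold change of 1.55. The vesicular glutamate transporter Slc17a6 was at 224, 302 and 491 CPM against 63.2, 111 and 178 (1.62, SE 0.13, adjusted p = 5.9e-10). None of these 3 genes overlapped between the regions, and the other 7 were not called. The glycine transporters Slc6a9 and Slc6a5 had log2 fold changes of -0.68 (adjusted p = 1.1e-05) and -0.19 (adjusted p = 0.32), and the vesicular GABA and glycine transporter Slc32a1, at a few CPM, of 0.28 (adjusted p = 0.37).

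Called receptors of GABA, glycine, glutamate and acetylcholine were mostly higher in the NTS, as were 65.7% of all called genes. Of 18 GABA-A and glycine receptor genes, 5 were called higher in the NTS and none in the RVLM. Among the 5 were Glra3 (2.06, SE 0.21), Gabrq (1.93, SE 0.21) and Gabra4 (1.26, SE 0.09). Of 16 ionotropic glutamate receptor genes, Grik1 (1.79, SE 0.15), Grik3 (1.77) and Gria2 (1.18, SE 0.08) were higher in the NTS and Grin3b in the RVLM. Gria2, the AMPA subunit that limits calcium entry, was at 179, 235 and 364 CPM in the NTS and at 69.3, 109 and 137 CPM in the RVLM. Among acetylcholine receptors, Chrna5 (2.46), Chrnb4 (2.26) and Chrna3 (1.41), whose genes form a cluster and whose subunits assemble together, and the muscarinic Chrm4 (2.12) and Chrm3 (2.11) were higher in the NTS and Chrna2 in the RVLM (-1.53). The serotonin receptors Htr5a and Htr2a were called in opposite directions (1.95 and -1.50).

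Channels differed by member rather than by family. For voltage-gated sodium channels, 5 of 12 tested genes were called higher in the NTS and 2 in the RVLM. Scn2a was at 74.6, 107 and 166 CPM in the NTS against 14.7, 26.4 and 62.4 CPM in the RVLM (log2 fold change 1.97, SE 0.12, adjusted p = 4.6e-12). Its relatives Scn3a and Scn9a had log2 fold changes of 1.95 and 2.02, and the beta subunit Scn3b of 2.28 (SE 0.12). Scn4b, the subunit of resurgent current in fast-firing neurons, was higher in the RVLM (-1.25, SE 0.11). Of 37 potassium and HCN channel genes, 8 were higher in the NTS and 7 in the RVLM. The first included Kcna5 (3.31, SE 0.32) and the leak channel Kcnk2 (2.13, SE 0.10), and the second Kcnj14, Kcng4 (-1.88, SE 0.13), Kcna1 (-1.38, SE 0.08) and Kcnab1 (-1.35, SE 0.06). Calcium channel subunits had 4 of 14 genes higher in the NTS, led by Cacnb3 (2.52, SE 0.12) and Cacna2d1, the target of gabapentin (1.82, SE 0.10), and Cacna2d3 higher in the RVLM (-1.15).

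Glia and vessels differed by less than the fold threshold. All 12 oligodendrocyte genes had lower levels in the NTS at an adjusted p of at most 0.01, with log2 fold changes from -0.82 to -0.49, and 23.5% of all tested genes passed that threshold in this direction and 22.8% in the other. Myelin basic protein (Mbp) was at 10700, 14800 and 22000 CPM in the NTS and at 20300, 26700 and 38900 CPM in the RVLM (-0.82, SE 0.09). Endothelial genes had a median log2 fold change of -0.42, and Cldn5, a tight junction protein, of -0.63. Microglial genes had a median of 0.33, with none of 10 called. Of 10 astrocyte genes, Gfap was called, at 401, 591 and 822 CPM against 103, 189 and 843 (1.52, SE 0.17), while the amino acid transporter Slc7a10 and the connexins Gjb6 and Gja1 had log2 fold changes of -0.99, -0.78 and 0.67. With library totals as the scale, the median of all tested genes moved up by 0.21, and folds of this size are relative to that shift.

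Among the pan-neuronal genes, the synaptic vesicle calcium sensor Syt1 was higher in the NTS (1.79, SE 0.14), and the tubulin Tubb3 (-1.63, SE 0.08) and the microtubule regulator Stmn2 (-1.19, SE 0.10) were higher in the RVLM, while 7 of the 10 tested were not called. Tubb3 was at 496, 832 and 1260 CPM in the NTS and at 1630, 2590 and 3380 CPM in the RVLM, without overlap. None of the 5 hemoglobin and other blood genes and none of the 7 pericyte and smooth muscle genes was called. Of 8 immediate early genes, Dusp1 was called, near the fold threshold (-1.04), and its call was lost without any of 4 single rats, WKY 8 wk replicate 1, 12 wk replicate 2, 16 wk replicate 1 or 24 wk replicate 1.

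Ependymal genes were higher in the NTS, which borders the fourth ventricle. Of 9 tested, 8 were higher in the NTS and Spag6 in the RVLM (median log2 fold change 3.01). Ccdc153, a gene of motile cilia, was at 0.487, 5.56 and 21.6 CPM in the NTS and at 0, 0 and 0.401 CPM in the RVLM (6.79, SE 0.34, adjusted p = 2.3e-13). Pifo (6.96), Tmem212 (6.35) and Cfap126 (4.96) went with it, and so did Cfap161 (5.62), Lrrc34 (5.05) and Fam183a (5.03), which were not in the list. The summed ependymal level ran from 12.9 to 128 CPM in the NTS and from 5.8 to 15.7 CPM in the RVLM. Spag6, a part of the axoneme, was at 0, 0.139 and 0.569 CPM in the NTS and at 0.1, 1.95 and 4.35 CPM in the RVLM (-3.31, SE 0.38).

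Choroid plexus RNA was in some NTS libraries. The summed level of this list had a median of 12.4 CPM in the NTS and 14.1 CPM in the RVLM, but it reached 4450 CPM in the NTS library of WKY 12 wk replicate 2, 1910 in WKY 8 wk replicate 5, 782 in WKY 12 wk replicate 3, 244 in WKY 8 wk replicate 2 and 120 in WKY 10 wk replicate 4. No RVLM library exceeded 20.4 CPM. Transthyretin (Ttr), the main protein of this epithelium, was at 0.256, 1.26 and 4200 CPM in the NTS and at 0, 0.299 and 3.11 CPM in the RVLM (log2 fold change 7.09, SE 1.12, adjusted p = 2.1e-05). Of 12 choroid plexus genes 7 were called higher in the NTS, and 3 were without these 5 rats, when 2 were called higher in the RVLM and Kcnj13, Cldn2 and Sostdc1 lost their calls. Without them 923 genes were called higher in the NTS and 458 higher in the RVLM over all genes. The ependymal list then still had 8 of its genes higher in the NTS, and the Hox list had 10 of 13, with Hoxb3 (0.92, adjusted p = 0.011) and Hoxd4 (0.99, adjusted p = 0.016) no longer called. The call for Kcnj13 was also lost without WKY 12 wk replicate 2 alone (2.79, adjusted p = 0.016).

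**Figure D4:**
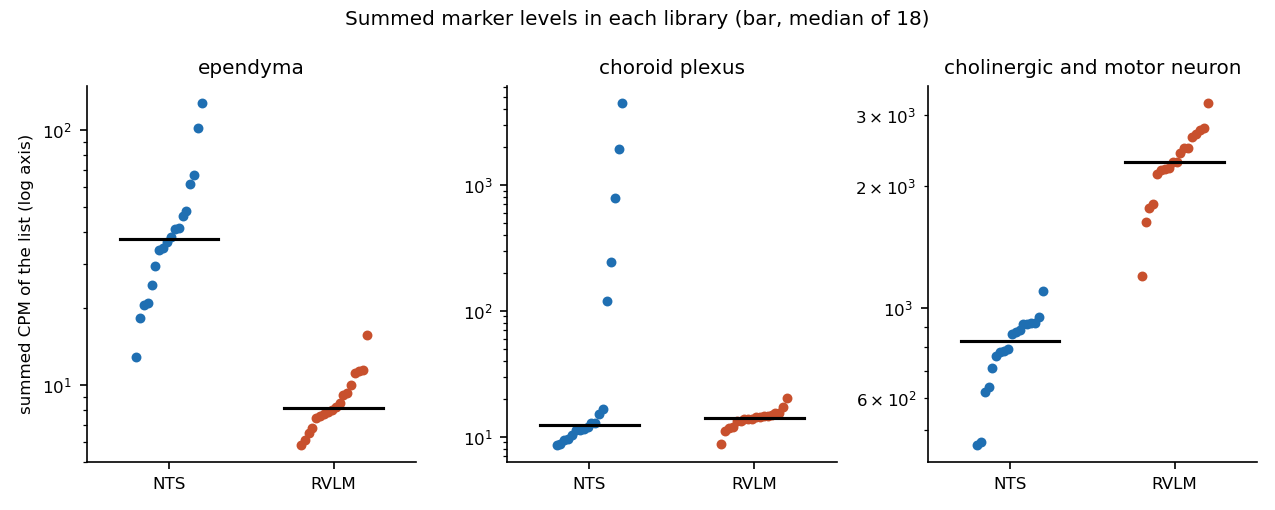
Summed CPM (log axes) of the ependyma, choroid plexus and cholinergic and motor neuron lists in each of the 18 NTS (blue) and 18 RVLM (red) libraries, sorted by value within a region, with bars at the medians. Most NTS libraries lie within the range of the RVLM for the choroid plexus list and 5 lie above it, from 120 to 4450 CPM, whereas motor neuron sums of the regions do not overlap.

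A few of the largest differences fell outside these groups. Adam7, a membrane protein known from the epididymis, was at 0, 0 and 0.161 CPM in the NTS and at 0.999, 5.38 and 9.11 CPM in the RVLM (log2 fold change -7.22, SE 0.32, adjusted p = 5.3e-14). Grifin, a galectin-related protein of the lens, was at 3.61, 6.69 and 21.2 CPM against 88, 137 and 423 (-4.37, SE 0.20), and albumin (Alb) at 0.322, 1.28 and 2.49 against 14.8, 21.7 and 43.3 (-4.19, SE 0.18). Trim58, a ubiquitin ligase, had a log2 fold change of -3.29. Toward the NTS, Olfr574, an odorant receptor gene, was at 0.0949, 4.35 and 13.4 CPM against 0, 0 and 0.141 (7.32, SE 0.26), and the keratin Krt19 at 2.34, 5.4 and 7.79 against 0, 0.0855 and 0.568 (5.43, SE 0.32). Apart from Olfr574, the libraries of the 2 regions did not overlap for the genes with printed ranges here, and all of these genes went 1 way in 18 of 18 rats. Cbln1 and Neurod1, which are known from cerebellar granule cells, were also higher in the NTS (3.31 and 3.09), while 4 of the 7 cerebellum markers were too low to be tested.

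The CVLM of the same 18 rats gave another level for each called gene. Positions are those of the region means on the log2 scale. Of the 964 genes higher in the NTS, 523 had a CVLM mean between the regions and nearer to the RVLM (54.3%). Another 267 had a mean between them and nearer to the NTS (27.7%). Of the 503 genes higher in the RVLM, 242 had a CVLM mean between the regions and nearer to the NTS (48.1%). A further 121 lay between and nearer to the RVLM (24.1%), and 116 were lower in the CVLM than in both (23.1%). The last group holds Chat and Isl1. By medians, Gal (109 CPM) and Penk (731 CPM) had CVLM levels near or above those of the NTS (116 and 606 CPM). Gcg (0.72 CPM) and Pdyn (10.2 CPM) did not.

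The difference between the regions was tested for change with age before the ages were pooled. No gene of 13780 had a region-by-age term at an adjusted p of at most 0.01 (0.00%) or under 0.05 in edgeR's quasi-likelihood F-test, and 714 had an unadjusted p under 0.05. DESeq2 and limma voom called none either. The smallest p belonged to genes such as Cdh1, an adhesion protein, with log2 fold changes of 5.90, 4.33, 3.95, 1.34 and 2.04 in the order of the ages (adjusted p = 0.92), and Gpc3, a proteoglycan, with 4.35, 4.66, 2.92, 2.10 and 3.64 (adjusted p = 0.92). At 3 to 5 rats per age, a p that misses the threshold does not show that the ages are alike. Calcb, Chodl and Hspb1 had the most negative folds at 10 wk (-4.70, -4.42 and -4.31) and the least at 12 or 16 wk (-2.11, -2.57 and -2.70), each at an adjusted p of 0.92. All libraries of 10 wk rats have names that end in 2 and all those of 12, 16 and 24 wk rats have names that end in 1, so age and this number cannot be told apart in these values.

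Whether the region difference is particular to WKY rats was tested against 28 SHRs, of which 5, 5, 6, 6 and 6 were 8, 10, 12, 16 and 24 wk old. A region-by-strain term passed an adjusted p of at most 0.01 for 87 of 13780 genes (0.631%), and 1676 had an unadjusted p under 0.05. Among the 1467 genes called in WKY rats, the difference had the same sign in SHRs for 1457, and 47 had a strain term. Th, Dbh, Pnmt, Gcg, Chat and the 12 called Hox genes were not among the 47. For Pnmt the log2 fold change was -3.0 in SHRs (adjusted p of the strain term 0.056).

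Genes with a strain term included both directions. Cfap206, a gene of motile cilia, had the smallest p. It was at 24.6, 33.9 and 45.5 CPM in the NTS and at 7.2, 11 and 14.5 CPM in the RVLM of WKY rats, and at 1.57, 3.93 and 9.69 against 0, 0.151 and 0.451 in SHRs, which had log2 fold changes of 1.63 and 4.86 (strain term 3.23, adjusted p = 3.8e-15). Aldh1a1 had fold changes of -2.49 in WKY rats and -1.44 in SHRs (1.05, adjusted p = 6.1e-11), where the NTS median was 57.3 CPM in WKY rats and 93.2 CPM in SHRs. Cbs, an enzyme of hydrogen sulfide synthesis, had 1.80 and 0.66 (-1.15, adjusted p = 6.6e-11), and its RVLM medians were 12.5 and 46.9 CPM. The matrix protein Nov had 3.62 and 1.92 (-1.70, adjusted p = 7.8e-10). Among genes described above, Tacr3 (-1.08), Npy2r (-1.25), Kcnk2 (-0.80), Adcyap1 (-0.83), Ccdc153 (-2.96) and Lrrc34 (-1.66) had smaller differences between the regions in SHRs. The strain terms of Ttr (-7.46) and Kl (-2.47), which are choroid plexus genes, stand beside the high NTS libraries of 5 WKY rats given above, whose part in these terms was not tested. The highest NTS library of an SHR was at 2.41 CPM for Ttr.

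**Figure D5:**
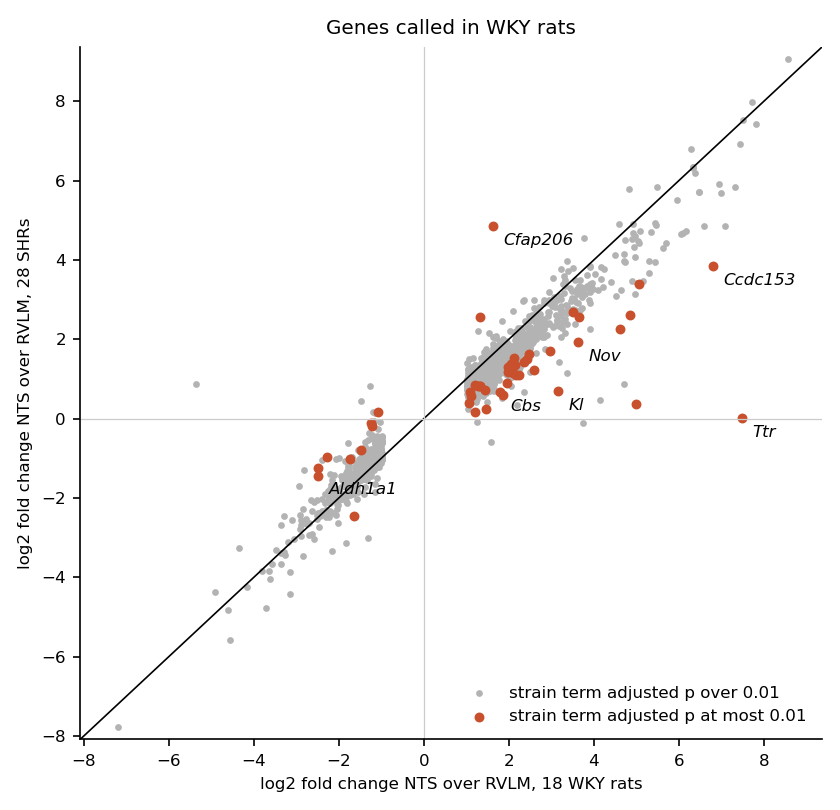
Fitted log2 fold change between the NTS and the RVLM in 18 WKY rats (horizontal axis) and 28 SHRs (vertical axis) for the genes called in WKY rats, with the line of equal folds; red points have a region-by-strain term at an adjusted p of at most 0.01. Most genes lie near the line, Cfap206 lies above it and Ttr, Kl, Nov and Ccdc153 lie below it.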

How the data were processed

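RNA of NTS, RVLM and CVLM punches was sequenced, and the authors aligned reads to rat build rn6 and deposited expected counts per gene from RSEM. The sources name ComBat_seq for batch correction, and whether the deposited counts carry it is not given in the sources used here; 4.91% of the values were not whole. Expected counts were rounded. Genes were tested where the regularized log count reached 3.5 in any of the 36 libraries. edgeR 4.0.16 (R 4.3.3) with TMM scaling fitted the region with the rat as a block by the quasi-likelihood test, with Benjamini-Hochberg adjustment over all tested genes. Genes were called at an adjusted p of 0.01 or less and a log2 fold change of 1 or more in either direction. Age was tested as region-by-age terms, and strain as a region-by-strain term over 18 WKY rats and 28 SHRs. Levels of SHRs and WKY rats set side by side come from a scaling over all their libraries.

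The named genes outside the lists were the 12 called genes with the largest change in each direction that had the same sign in all 18 rats, a mean of at least 50 counts in the region where they were higher and a symbol that is not a clone or locus name, up to 6 members of a list with the largest absolute fold change, any defining marker near 0, and the 4 genes per direction with the smallest p of the age and strain terms. Other list members given by name were chosen after their values were seen. The members and the lists were chosen with earlier results of these data known. Among the tested rows, 36 repeated the symbol of an earlier row, and 38 had counts identical to another row. For a list member with several rows, the row with the largest total was used. The pairing of regions comes from the animal number in the library names, by which both libraries are taken to be of 1 rat. The deviations of the libraries of a rat from their group means had correlations from -0.286 to 0.497, with a median of 0.21. In 14 of 18 rats this correlation was above the median correlation with other rats of the same age. Group means came from 3 to 5 rats, so a value above 0 within a rat pushes those with other rats below 0. The 14 of 18 is therefore no separate check of the pairing. The lowest value within a rat, -0.286, was that of WKY 8 wk replicate 3, whose RVLM library stood apart. No pair of libraries of the same region agreed within sampling noise. Library totals ran from 6799589 to 17889406 counts, which limits genes of few CPM most. Alternatives with DESeq2 1.42.0 and limma 3.58.1, other scalings, filters and left-out rats are described at the end. A few genes are not reported here. The scripts were tested on simulated data with known changes.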

Additional observations from a re-analysis of the deposited data

Results flagged for a closer look

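The following genes had a region difference that differed between WKY rats and SHRs by the region-by-strain term of edgeR's quasi-likelihood test, and each value is the SHR minus the WKY log2 fold change (NTS over RVLM), over 18 WKY rats and 28 SHRs. The difference was larger toward the NTS in SHRs, or less negative, for Cfap206 (3.23, adjusted p = 3.8e-15), Aldh1a1 (1.05, adjusted p = 6.1e-11), Tmem255b (0.75, adjusted p = 5.5e-05) and the mitochondrial acyl-CoA dehydrogenase Acadl (0.71, adjusted p = 1.2e-05). It was smaller for the telomere protein Terf2ip (-0.65, adjusted p = 6.1e-11), Cbs (-1.15, adjusted p = 6.6e-11), Nov (-1.70, adjusted p = 7.8e-10) and Kl (-2.47, adjusted p = 5.8e-05). The complement protease C1s had -1.01 (adjusted p = 2.6e-07), with log2 fold changes of 0.55 in WKY rats and -0.46 in SHRs, which differ in sign.

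Among receptors and peptides the values were -1.08 for Tacr3 (adjusted p = 0.00025), -1.25 for Npy2r (adjusted p = 0.0019) and -0.83 for Adcyap1 (adjusted p = 0.0089), and for the channel Kcnk2 -0.80 (adjusted p = 0.00011). Angiotensinogen (Agt) had -0.36 (adjusted p = 0.0026), with log2 fold changes of 0.36 in WKY rats and -0.01 in SHRs. Of the cilia genes, Ccdc153 had -2.96 (adjusted p = 0.0024) and Lrrc34 -1.66 (adjusted p = 0.0084). Ttr had -7.46 (adjusted p = 0.00042), with log2 fold changes of 7.49 and 0.02.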

How the results depend on the processing

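Called genes numbered 1467 (964 higher in the NTS and 503 in the RVLM), and between 1316 and 1931 under the other scalings, filters, tools and library sets. Without the fold threshold they were 6372 (3138 and 3234), and at an absolute log2 fold change over 2 they were 472 (368 and 104). Library totals alone as the scale gave 1625 genes, of which 79.3% were higher in the NTS against 65.7%. Leaving out 1 rat at a time gave 1429 to 1504 genes, 944 to 999 higher in the NTS and 479 to 518 in the RVLM. Without the rat as a replicate block there were 1444 genes (956 and 488), and of the named genes Hapln2 (-0.92) lost its call. The strain term passed for 87 genes, for 146 with DESeq2 and for 196 at an adjusted p under 0.05, and for 77 with no replicate block. The age term passed for none in any setting. Of 5126 pairs of a named gene and a setting, 5037 kept direction and call, 72 lost the call (20 genes) and 14 gained it. The 3 reversed values were those of Slc6a5, with library totals (0.02) and in the libraries of number 2 (0.19) and of Kcnj13 without the 5 rats with choroid plexus RNA (-0.28). Pnmt lost its call with library totals (-1.11, with an adjusted p that rounds to 0.01 and lies just above it) and with no filter (adjusted p = 0.011), and Ttr with limma voom (4.95, adjusted p = 0.038). Hapln4 lost its call without WKY 8 wk replicate 1, 10 wk replicate 4, 12 wk replicate 2, 16 wk replicate 1 or 24 wk replicate 1, and Hapln2 without any of these or 8 wk replicate 3 or 12 wk replicate 3, with values from -1.10 to -0.88. The cause was not tested. The 3 settings without the 2 or 3 rats of the RVLM libraries that stood apart and without those with choroid plexus RNA were chosen after seeing the data.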

Other observations

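Correlations across the 18 rats within a region were computed on log2(CPM + 0.5) with 100000 permutations each. The 6 relations below were chosen after the values were seen, and neither the raw nor the adjusted p-values account for that choice, so they are given as a description and support no result. In the NTS libraries, Hoxb7 and Gcg had a Pearson r of 0.91 (permutation p = 1e-05, the smallest that these permutations can give, adjusted p = 6e-05) and a Spearman rho of 0.88 (permutation p = 2e-05, adjusted p = 0.00012), and r was 0.85 without the 2 rats farthest from the median of Hoxb7. Within the libraries of number 1 and of number 2, r was 0.93 and 0.82. Hoxb7 and Prlh had an r of 0.80 (permutation p = 0.00011, adjusted p = 0.00033) and a rho of 0.64 (permutation p = 0.0048, adjusted p = 0.0073), and r was 0.52 without the 2 farthest rats and 0.82 and 0.90 within the numbers. Hoxb7 and Hcrt had an r of -0.73 (permutation p = 0.00065, adjusted p = 0.0013) and a rho of -0.77 (permutation p = 0.00031, adjusted p = 0.00093), with -0.81 without the 2 rats and -0.65 and -0.74 within the numbers. Hoxb7 and Ccdc153 had an r of -0.64 (permutation p = 0.0039, adjusted p = 0.0044) and a rho of -0.69 (permutation p = 0.002, adjusted p = 0.0041), with -0.66 without the 2 rats and -0.66 and -0.68 within the numbers.

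In the RVLM libraries, the summed cholinergic and motor neuron list and the summed catecholamine list had an r of -0.62 (permutation p = 0.0044, adjusted p = 0.0044) and a rho of -0.55 (permutation p = 0.02, adjusted p = 0.02), with -0.57 without the 2 rats farthest from the median of the motor neuron list and -0.59 and -0.54 within the numbers. The same list and Pnmt had an r of -0.67 (permutation p = 0.002, adjusted p = 0.0029) and a rho of -0.58 (permutation p = 0.014, adjusted p = 0.016), with -0.62 without the 2 rats and -0.54 and -0.64 within the numbers. The libraries of a rat's region share their depth and scaling factor, whose part in these values was not tested.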
